A study of Mus musculus with 10 samples.

Results

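The epicardium is the sheet of mesothelial cells that covers the heart, and 8 genes that mark such cells were followed in the right atrium of adult mice: Wt1, Upk3b, Upk1b, Msln, Krt19, Krt8, Krt18 and Lrrn4. The members were chosen by symbol from the 23337 genes of the deposited table, and all 8 were present and passed the filter on low counts, as did 13084 genes in all. RNA-seq was made from the right atria of 10 mice, 4 labelled control and 6 labelled Tbx5 mutant, 1 library per mouse. The study asks which genes of the adult atrium depend on TBX5, a T-box transcription factor. According to the labels, exon 3 of Tbx5 is removed by a Cre recombinase that tamoxifen switches on and that the R26 promoter, active in all tissues, drives. The paper, which describes left atrial RNA-seq only, gives its control genotype as R26CreERt2 and its mutant genotype as Tbx5 fl/fl;R26CreERt2. With those genotypes both groups would carry the inducible Cre. The protocol text shared by all samples gives tamoxifen at 0.167 mg per day for 3 days, with tissue taken 1 week later. It gives an age of 6 to 8 weeks, while the age label of the samples gives 8 to 10 weeks. The strain is given as mixed. Epicardial cells are thus among those that can carry the deletion.

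Epicardial cells are flat epithelial cells that line the pericardial cavity, and they keep epithelial keratins and apical membrane proteins. WT1 is the zinc finger transcription factor best known for marking the epicardium, where it is needed in the embryo. Uroplakins were first described in the urothelium of the bladder, mesothelin is a surface glycoprotein of mesothelial cells, and keratins 8, 18 and 19 form the intermediate filaments of simple epithelia.

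None of the 8 members passed the rule for a change between mutant and control mice, and the level of the set spread over a wider range in the mutant mice than in the control mice. The summed level of the 8 genes was between 387 and 406 CPM (counts after scaling by library) in the 4 control mice. It was 313 CPM in mutant mouse F1, 395 in F2 and 239 in F3. It was 469 CPM in mutant mouse M1, 447 in M2 and 439 in M3. Mutants F1 and F3 thus lay below every control, the 3 mutant mice labelled male lay above every control, and mutant F2 lay within the control range. Upk3b, Msln and Lrrn4 made up most of this sum, with control means of 163, 82.4 and 68.1 CPM. The coefficient of variation (SD over mean) went the other way for Krt8, at 32.8% in control and 25.4% in mutant mice. It did so for Krt18 as well, at 27.6% and 21.1%, and was larger in the mutant mice for the other members. The share of all genes with a larger coefficient of variation in the mutant mice was not computed, so a spread particular to these genes was not tested. In a whole tissue, fewer mesothelial cells and less RNA per cell cannot be told apart.

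**Figure D1:**
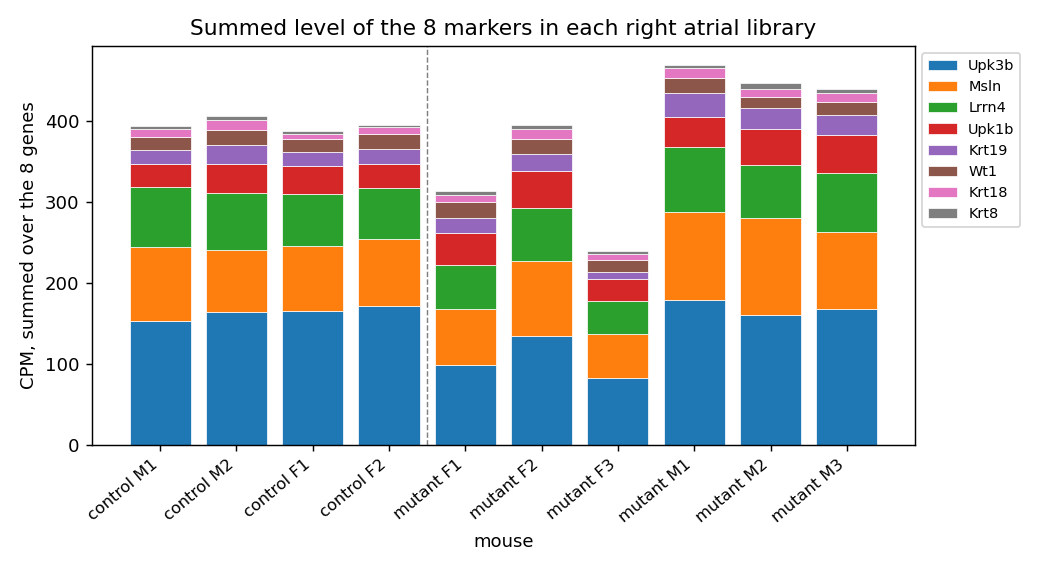
Stacked bars give the CPM of the 8 genes in each right atrial library, with the 4 control mice left of the dashed line and the 6 mutant mice right of it. The control bars end between 387 and 406 CPM, and the mutant bars end between 239 and 469 CPM.

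The libraries held 5703775 to 7095141 counted reads. In mutant M3, 38.9% of the reads were on the ribosomal RNA gene Rn45s, against 0.268% to 1.49% in the other mice. Tbx5 itself was at 205 ± 17.8 CPM in the control mice (SD, n = 4) and at 394 ± 83.3 CPM in the mutant mice (SD, n = 6). That is a log2 fold change of 0.94 (adjusted p = 0.000495, edgeR quasi-likelihood test with Benjamini-Hochberg adjustment), against the direction the labels would give. The count covers the whole gene and does not separate transcripts with and without exon 3, so it does not measure the deletion itself. Sln, the sarcolipin gene of atrial muscle, was at 1823 ± 244 and 927 ± 164 CPM in control and mutant mice, a log2 fold change of -0.98 (adjusted p = 0.000264, edgeR), with all 6 mutant mice below every control. Xist, the RNA that coats the silenced X chromosome, had 10149 and 7850 reads in the controls labelled male but only 5 and 14 in the controls labelled female, which goes against their sex labels. Groups and sexes are therefore named by their labels throughout, and every direction is relative to the labels. A gene was called when its adjusted p was under 0.05, its fold change over 1.5 and its control mean over 1 normalized count.

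Per kilobase of transcript, the order of the mean levels in the control mice was Upk3b, Msln, Lrrn4, Upk1b, Krt19, Krt18, Wt1 and Krt8. Upk3b was at 46.3 ± 2.31 CPM per kb (SD, n = 4) and Msln at 38.1 ± 2.92, and over all mice Upk3b was above Msln in 6 of 10. Lrrn4 at 18.3 ± 1.43 CPM per kb and Upk1b at 17.0 ± 1.73 overlapped in the control mice, and Upk1b was the higher of the pair in 6 of 10 mice. Krt19 was at 12.1 ± 1.95 CPM per kb. Krt18 at 6.33 ± 1.75 and Wt1 at 5.65 ± 0.57 CPM per kb overlapped as well, with Krt18 higher in 7 of 10 mice. Krt8, at 1.74 ± 0.57 CPM per kb, was below Wt1 in 10 of 10 mice.

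Wt1, the transcription factor of the set, had nearly equal means in both groups. It was at 15.9, 18.9, 16.0 and 19.1 CPM in controls M1, M2, F1 and F2 and between 14.0 and 19.2 CPM, with a median of 17.0, in the mutant mice. The groups overlapped, with 3 mutant mice below the lowest control and 1 above the highest. The fitted log2 difference of mutant minus control was -0.05 (standard error 0.12, 95% interval -0.32 to 0.21, adjusted p = 0.764, edgeR).

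The uroplakins were Upk3b, a membrane protein with a single pass, and Upk1b, a tetraspanin. Upk3b was at 152, 164, 166 and 172 CPM in controls M1, M2, F1 and F2. In the mutant mice it was lowest at 82.0 CPM in F3, with a median of 147, and highest at 178 CPM in M1. The coefficient of variation was 4.99% in the control mice and 28.8% in the mutant mice. Mutants F1, F2 and F3 all lay below the lowest control, whereas M1, M2 and M3 lay among or above the controls. Upk3b had a log2 fold change of -0.26 (standard error 0.18, 95% interval -0.65 to 0.13, adjusted p = 0.299, edgeR).

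Upk1b was at 28.6, 35.6, 34.3 and 30.5 CPM in controls M1, M2, F1 and F2 and between 27.0 and 46.8 CPM, with a median of 41.5, in the mutant mice. In 5 of the 6 mutant mice it was above the highest control, and in F3 it was below the lowest. The log2 fold change was 0.31 (standard error 0.14, 95% interval 0.01 to 0.61, p = 0.0446 in edgeR before adjustment, adjusted p = 0.108), and the two-sided exact permutation test over the 210 splits of the mice gave p = 0.110. Without mutant F3 the log2 fold change was 0.42 (adjusted p = 0.0122, edgeR), which is still under the fold change of the call rule. With the trend of each library on transcript length removed it was 0.17 (adjusted p = 0.357, edgeR).

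Msln, which encodes mesothelin, was at 91.3, 76.4, 80.1 and 81.9 CPM in controls M1, M2, F1 and F2. In the mutant mice it was between 54.8 CPM in F3 and 119 CPM in M2, with a median of 93.3. Of the mutant mice, 4 were above the highest control and 2 below the lowest, so the mutant values enclosed the control values on both sides. The log2 fold change was 0.12 (95% interval -0.25 to 0.50, adjusted p = 0.616, edgeR). Lrrn4, a leucine-rich repeat membrane protein, was at 74.4, 70.5, 64.3 and 63.2 CPM in the same control mice and between 40.3 and 80.2 CPM, with a median of 65.8, in the mutant mice. Its log2 fold change was -0.11 (95% interval -0.44 to 0.22, adjusted p = 0.607, edgeR), and mutant F3 was again the lowest.

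Among the keratins, Krt19, a type I keratin of simple epithelia, was at 17.3, 23.7, 17.6 and 17.7 CPM in controls M1, M2, F1 and F2. In the mutant mice it was between 9.20 CPM in F3 and 29.5 CPM in M1, with a median of 22.5. The groups overlapped, and 3 mutant mice were above the highest control. Krt19 had a log2 fold change of 0.16 (95% interval -0.35 to 0.67, adjusted p = 0.631, edgeR).

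Krt18, the type I partner of keratin 8, was at 10.0, 11.9, 5.96 and 8.53 CPM in controls M1, M2, F1 and F2 and between 7.11 and 12.5 CPM, with a median of 10.5, in the mutant mice. Its log2 fold change was 0.16 (95% interval -0.28 to 0.59, adjusted p = 0.587, edgeR). Krt8, the type II partner, had the fewest reads of the set, between 15 and 49 per library. It was at 4.14, 4.47, 2.98 and 2.03 CPM in the same control mice and between 3.62 and 7.14 CPM, with a median of 5.48, in the mutant mice, 4 of which were above the highest control. Krt8 had a log2 fold change of 0.62 (standard error 0.26, 95% interval 0.06 to 1.17, p = 0.0324 in edgeR before adjustment, adjusted p = 0.0854), and the exact permutation test gave p = 0.0524. Of the 50-base windows of the Krt8 transcript, 26.9% also occur in the pseudogene Krt8-ps, which was not analysed here, and 5.16% of its exon bases overlap the antisense gene Gm36026. The Krt8 value is uncertain to that extent, since the counting of shared and antisense reads is not given in the sources used here.

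**Figure D2:**
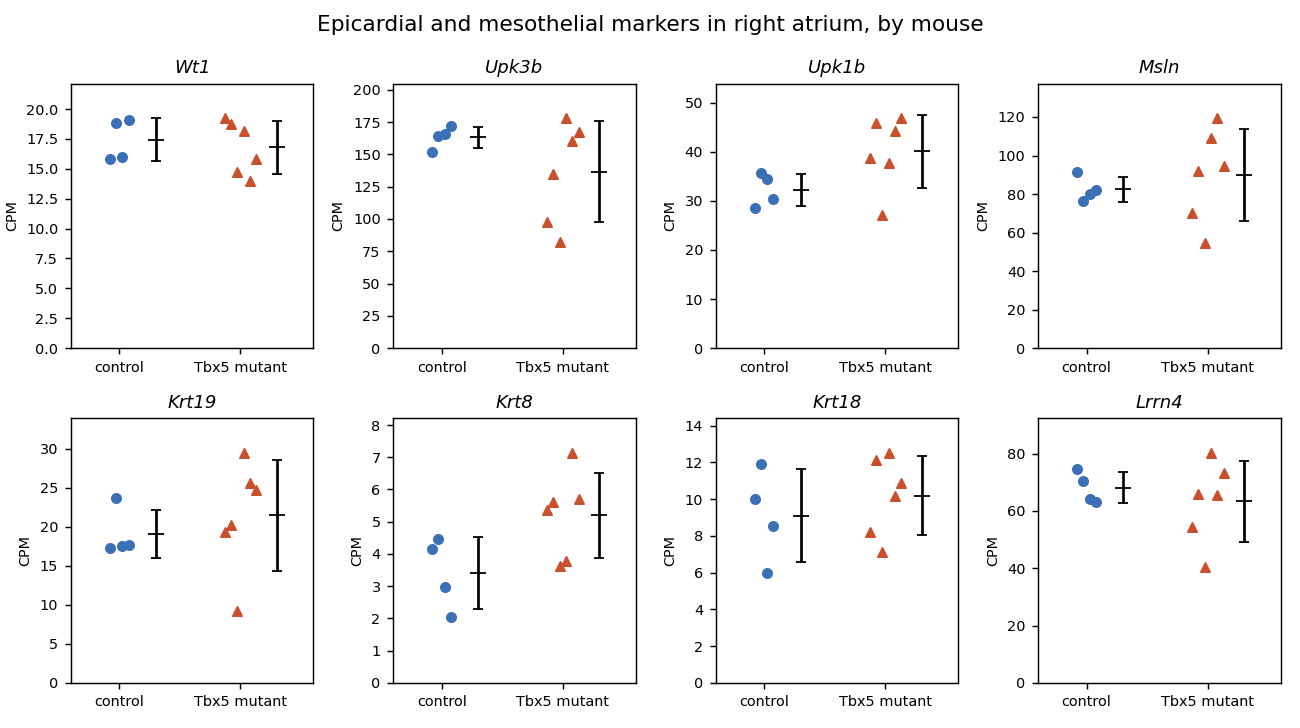
Each panel gives the CPM of 1 gene in the 4 control mice (circles) and the 6 mutant mice (triangles), with the mean and SD drawn to the right of each group and the axis starting at 0. The groups overlap in every panel, and in Upk3b the mutant mice spread from 82.0 to 178 CPM around controls at 152 to 172 CPM.

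Of the 8 members, 0 were called higher and 0 lower, where 15.7% of all genes tested were called, 8.50% higher and 7.16% lower. At an unadjusted p under 0.05 there were 2, Krt8 and Upk1b, in edgeR and in DESeq2, and 1, Krt8, in limma. An adjusted p of 0.05 was passed by 0 of them in each of these tools. Of all genes tested, 31.3% passed it in edgeR and had a control mean over 1 normalized count. The mutant and control values overlapped in all 8, whereas 22.7% of all genes tested had groups that did not overlap. The median log2 fold change of the members was 0.14, beside -0.005 over all genes tested, and -0.01 with the trend on transcript length removed. For Wt1, Msln and Lrrn4 the 95% interval lay inside a fold change of 1.5 in both directions. For Krt8 it ran from 1.04-fold to 2.25-fold, so that its size is the least well known of the set.

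**Figure D3:**
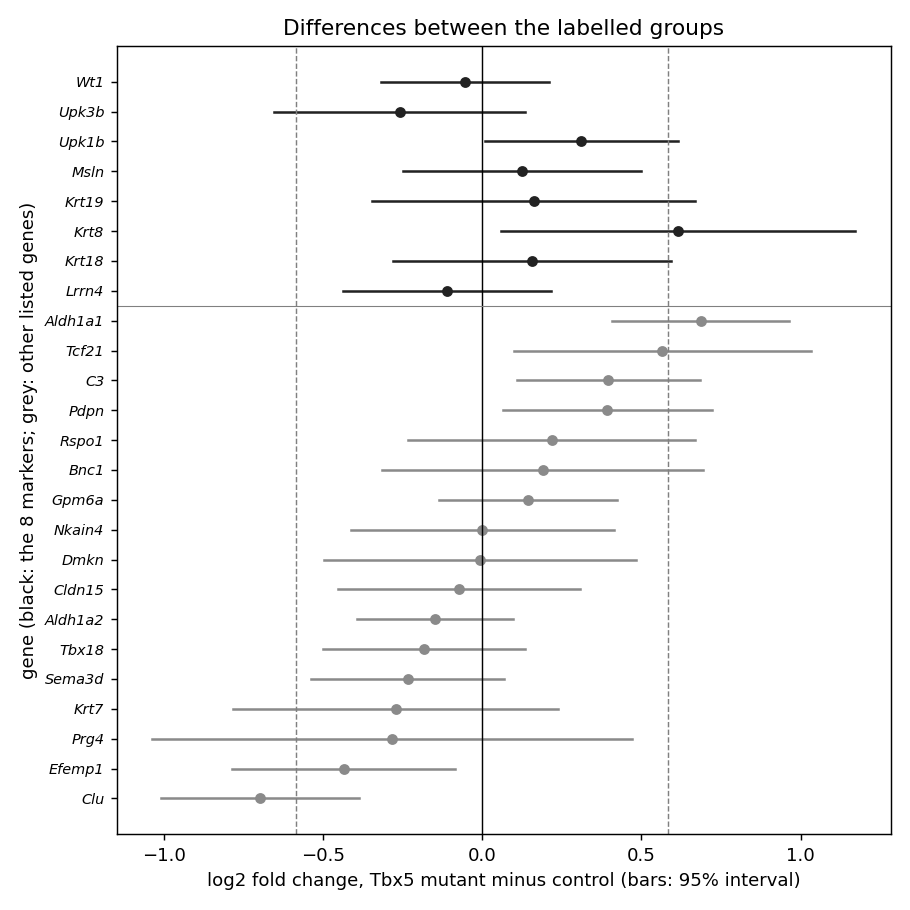
Points give the log2 fold change of mutant over control mice and bars its 95% interval, for the 8 markers (black) and the other epicardial and mesothelial genes tested (grey), with dashed lines at a fold change of 1.5. The intervals of Krt8 and Upk1b lie just above 0 and those of the other 6 markers cross it, while Aldh1a1 and Clu lie furthest to either side.

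A further list of 20 epicardial and mesothelial genes was read in the same way, of which 17 were tested. There 1 was called higher and 1 lower, where 8.50% of all genes tested were called higher and 7.16% lower. The median log2 fold change of the list was -0.01. Aldh1a1, an enzyme of retinoic acid synthesis, rose from 43.7 ± 3.24 CPM (SD, n = 4) to 70.4 ± 12.4 CPM (SD, n = 6), a log2 fold change of 0.69 (adjusted p = 0.00144, edgeR). Clu, the secreted chaperone clusterin, fell from 2910 ± 219 to 1793 ± 359 CPM, a log2 fold change of -0.70 (adjusted p = 0.0027, edgeR). C3, a complement protein, had an adjusted p of 0.037 in edgeR with a log2 fold change of 0.40, under the fold change of the call rule. Over the 10 mice, with group means subtracted, Aldh1a1 correlated with the mean pattern of the members at 0.23, Clu at 0.48 and C3 at -0.08. Krt7, the highest of the list in this respect, was at 0.93. Which cells the reads of Aldh1a1, Clu and C3 came from was not tested. The transcription factors of the embryonic epicardium in the list did not pass. Tbx18 was at 24.5 ± 5.18 and 21.6 ± 3.37 CPM in control and mutant mice, a log2 fold change of -0.18 (adjusted p = 0.368, edgeR). Tcf21, which fibroblasts also express, was at 23.9 ± 9.19 and 35.2 ± 8.31 CPM, a log2 fold change of 0.57 (adjusted p = 0.0618, edgeR). Calb2, which encodes the mesothelial protein calretinin, had at most 1 read in any library, and Slpi at most 10. Muc16 was not analysed here.

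Most of the members, Wt1 and Krt8 least, varied together over the mice, and that pattern rested largely on 1 mouse. Mutant F3 had the lowest value of its group in 7 of the 8 genes, all but Wt1. Relative to the control mean it was at -1.05 on the log2 scale for Krt19, -0.76 for Lrrn4, -0.59 for Msln, -0.36 for Krt18 and -0.25 for Upk1b, and Upk3b was at 82.0 CPM against a control mean of 163. Krt8 in mutant F3, though the lowest of its group, was at 0.09, above the control mean. Mutant M1 had the highest value of its group in 4 genes, Upk3b, Krt19, Krt18 and Lrrn4. Among the control mice the highest and lowest values were spread over several libraries.

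**Figure D4:**
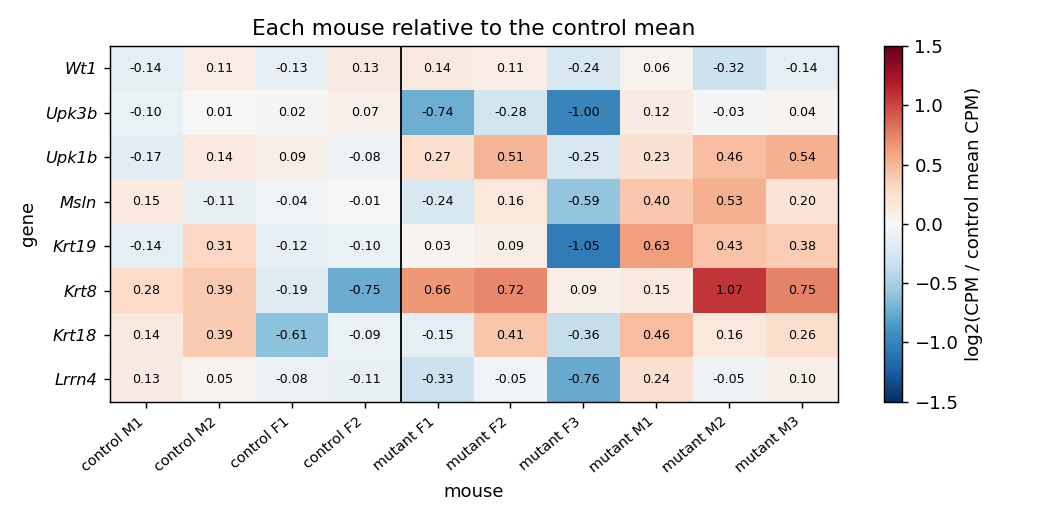
Each cell gives the log2 ratio of the CPM of 1 gene in 1 mouse to the mean of the control mice, with control mice left of the black line and mutant mice right of it. Mutant F3 is the bluest column, at -1.05 for Krt19 and -0.76 for Lrrn4, and Wt1 is the palest row.

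After subtraction of the group means, 26 of the 28 pairs of members had a positive correlation of log2 CPM over the 10 mice, between -0.22 and 0.91, with a median of 0.58. The highest were Krt19 with Lrrn4 at 0.91, and Upk3b with Msln and with Lrrn4, both at 0.90. Wt1 was least like the mean of the other members, at 0.13, followed by Krt8 at 0.38. These points share library scaling and 1 mouse far from the rest: without mutant F3, 19 of the 28 pairs were positive and the median was 0.19.

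The genes most like the members over the 10 mice, among 9975 genes with a mean count of at least 50, were Ckmt1 at a correlation of 0.95, Krt7 at 0.93, Rspo1 at 0.89, and Hist1h1d, Fads2, Crb2, Dgcr14, Tll1, Aplp1 and Ttc13 at 0.85 to 0.87. This likeness leaves out the difference between the groups. Hist1h1d was called higher (log2 fold change 2.44, adjusted p = 1.33e-05, edgeR) and Crb2 lower (-0.64, adjusted p = 0.044, edgeR), and the others were not called. Krt7, a keratin of simple epithelia, and Rspo1, a secreted Wnt agonist, belong to the further list of epicardial and mesothelial genes. Without mutant F3, 0 of these 10 genes stayed among the 10 most alike, and Krt7 was at 0.77, Crb2 at 0.78 and Rspo1 at 0.45.

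The RefSeq promoter table (GRCm38.p6) held 4 of the 8 members, Upk3b, Krt8, Krt18 and Lrrn4. The windows of Upk3b and Lrrn4 are shown because they are the ones with a match among 5 motifs searched on both strands, so the match in both is by choice. They run 5′ to 3′ on the strand of the gene and end where the gene begins in the annotation, at chr5:136038246-136038495 on the forward strand for Upk3b and at chr2:132880892-132881112 on the reverse strand for Lrrn4. Capitals mark GGAATG, the core of the motif of TEAD factors, or its reverse CATTCC.
Upk3b: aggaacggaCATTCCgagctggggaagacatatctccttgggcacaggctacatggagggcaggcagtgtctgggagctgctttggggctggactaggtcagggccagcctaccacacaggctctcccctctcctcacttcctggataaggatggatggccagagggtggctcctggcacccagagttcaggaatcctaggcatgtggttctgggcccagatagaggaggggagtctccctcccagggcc
Lrrn4: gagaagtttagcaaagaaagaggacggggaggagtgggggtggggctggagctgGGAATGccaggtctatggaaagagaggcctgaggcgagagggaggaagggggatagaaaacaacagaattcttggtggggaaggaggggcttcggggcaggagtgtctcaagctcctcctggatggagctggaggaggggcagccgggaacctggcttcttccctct
The match lies 241 to 236 bases before the start of Upk3b and 196 to 191 bases before the RefSeq start of Lrrn4. A match to this motif was present in 12.6% of the 32851 promoter windows of 250 bases. The search covered the full 250 bases before the RefSeq start of each gene, also where fewer bases are shown. None of the 4 windows held AGGTGT, the core of the T-box motif (11.8% of all windows), TATAAA (12.4%), the GC box GGGCGG (32.7%) or GCGTGGG, a core bound by WT1 (4.30%), on either strand. The motifs do not overlap each other in these windows, and a match is no evidence of binding.

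Ratios within a library, which need no scaling, were read for 2 pairs of partners. Reads of Upk1b per 100 reads of Upk3b numbered 18.8, 21.7, 20.7 and 17.7 in controls M1, M2, F1 and F2. In mutant mice F1, F2 and F3 they numbered 39.6, 34.1 and 33.0, and in M1, M2 and M3 21.2, 27.6 and 28.0. All mutant mice but M1 were above the highest control. The ratio was 1.52-fold higher in the mutant mice, a mean difference of 0.61 on the log2 scale (two-sided exact permutation test over 210 splits, p = 0.019, adjusted p = 0.0381 over the 2 ratios). The call was lost without control M1, F1 or F2 (adjusted p = 0.0714 in each case, exact permutation test), without mutants M2 and M3 together (adjusted p = 0.114, exact permutation test), and with the length trend removed, where the difference was 0.47 (adjusted p = 0.0762, exact permutation test). The Upk1b transcript has 1894 bases and that of Upk3b 3530, and over 12951 genes the log2 fold change had a Spearman correlation of -0.32 with transcript length. The part of length in the ratio beyond that correction was not tested.

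Reads of Krt8 per 100 reads of Krt18 numbered 41.4, 37.5, 50.0 and 23.8 in controls M1, M2, F1 and F2. They were between 30.1 and 70.0 in the mutant mice, 4 of which were above the highest control. The difference was 0.45 on the log2 scale (two-sided exact permutation test, p = 0.152, adjusted p = 0.152), close to the SD of 0.45 between the control mice. The genes of this pair lie side by side on chromosome 15, 23697 bases apart, Krt8 on the reverse strand and Krt18 on the forward strand.

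**Figure D5:**
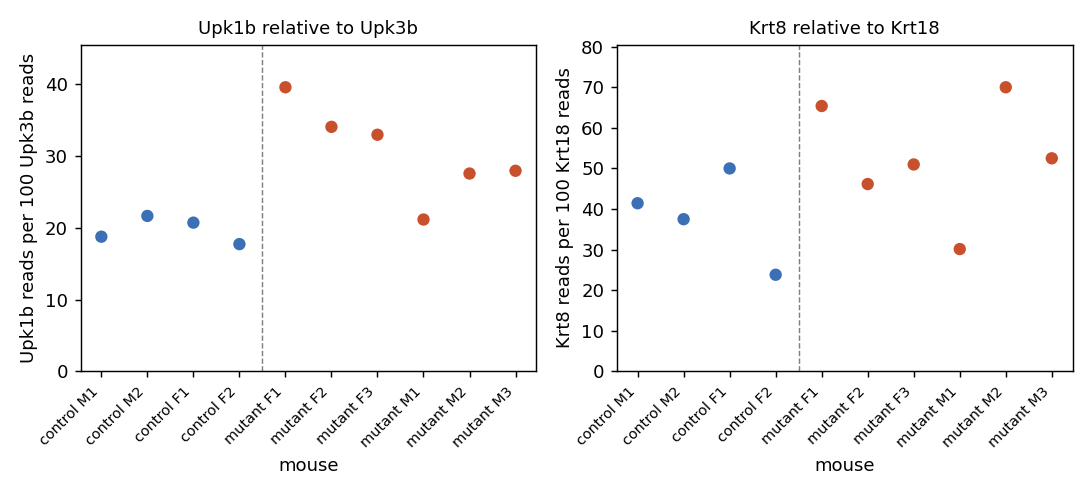
Points give, for each mouse, the reads of Upk1b per 100 reads of Upk3b (left) and of Krt8 per 100 reads of Krt18 (right), on axes that start at 0, with control mice left of the dashed line. On the left the controls lie between 17.7 and 21.7 and the mutants between 21.2 and 39.6, and on the right the groups overlap.

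Some members also divided by labelled sex within the mutant mice, a comparison made after the values were seen. All 3 mutant mice labelled male were above all 3 labelled female in 3 of the 8 members, Upk3b, Msln and Krt19, where 6.15% of all genes tested showed this. The reverse held for 0 members, where 6.19% of all genes showed it. Upk3b was at 105 ± 26.9 CPM in the mutant females (SD, n = 3) and at 169 ± 8.88 in the mutant males (SD, n = 3). Msln was at 72.2 ± 18.6 and 108 ± 12.4 CPM, and Krt19 at 16.3 ± 6.15 and 26.6 ± 2.51 CPM, in mutant females and males. Wt1 was higher in the mutant females, at 17.6 ± 2.46 against 16.0 ± 2.10 CPM, and Krt8 was at 4.86 ± 1.08 and 5.54 ± 1.69 CPM. Upk3b, Msln and Krt19 correlated with each other at 0.82 to 0.90 over the 10 mice and were all lowest in mutant F3. They therefore do not count as 3 separate results. In the further list the males were all above the females in 8 of 17 genes, among them Bnc1, Krt7, Pdpn and Nkain4. An exact permutation test of 3 mice against 3 cannot go below p = 0.10, and none was made. The interaction of genotype and labelled sex was passed by 0 of the 8 members at an adjusted p of 0.05 in edgeR, where 0.290% of all genes passed. Among the members 1 had an unadjusted p under 0.05, and the lowest adjusted p was 0.26, for Upk3b. With the sex labels of the control mice exchanged, the reading that Xist gives, 5 members had an unadjusted p under 0.05 and 0 an adjusted one, with a lowest adjusted p of 0.468, where 0.00764% of all genes passed.

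Markers of other cells were read beside these results, and their part in the values of the 8 genes was not tested. Of the other uroplakins, Upk2 and Upk3a were at 0 reads in all libraries and Upk1a had at most 7 in any library. Of the other epithelial genes, Epcam and Cdh1, which define most epithelia, had at most 2 reads in any library and Krt5, Krt15 and Cldn4 were at 0, and of 4 tested genes 0 were called. That list summed to 932 to 1457 CPM in control and 501 to 1239 CPM in mutant mice, nearly all of it Dsp and Jup, which heart muscle expresses. The 6 lung and airway genes summed to 0.157 to 1.00 CPM in control mice and 0.666 to 1.95 CPM in mutant mice, and the 4 thymus genes to at most 1.58 CPM. The 6 adipocyte genes summed to 22.3 CPM in mutant M2 and to at most 4.96 CPM in any control. The fibroblast list had 3 of 6 genes called higher (Col1a1, Col3a1 and Postn), while Pdgfra in that list was lower at a log2 fold change of -0.40 (adjusted p = 0.0152, edgeR), under the fold change of the call rule, and Dcn was at -0.01. In the mutant mice 2 of 4 smooth muscle genes (Acta2 and Tagln), both tested leukocyte genes (Ptprc and Cd68), 1 of 4 vascular genes (Vwf) and 5 of 5 cycling genes were called higher. The lymphatic list had 1 of 3 called lower (Prox1), the atrial muscle list 3 of 5 lower (Nppa, Myl7 and Sln) and the ventricular list 2 of 3 higher (Myl2 and Myl3). Over all genes tested, 8.50% were called higher and 7.16% lower. The vascular genes not called were at log2 fold changes of -0.24 (Kdr), 0.10 (Cdh5) and 0.23 (Pecam1). Those of the lymphatic list were at -0.11 (Lyve1) and 0.001 (Flt4), and those of the atrial list at 0.10 (Myh6) and -0.44 (Myl4). The summed fibroblast genes were at 3491 to 4738 CPM in control mice and 6227 to 9010 CPM in mutant mice, without overlap, and the summed atrial genes at 61113 to 71895 and 40716 to 55105 CPM.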

How the data were processed

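RNA of right atria from 4 control and 6 Tbx5 mutant mice was analysed from the counts of reads per gene that the authors deposited, whole numbers without normalization. The deposited table also holds a signal, the counts divided by 1 size factor per library, used here for the control mean of the call rule. Its other columns hold the authors' own comparison (a log2 fold change, its error, a score, a p-value, an adjusted p-value and a linear ratio) and were not used. Per the labels, the submitters' processing notes name mm10, TopHat2 2.0.11, featureCounts and DESeq2, without roles, and the paper describes left atrial RNA-seq only. The labels describe both an mRNA kit and ribosomal depletion.

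Counts were fitted with edgeR 4.0.16 in R 4.3.3 (filterByExpr, TMM, quasi-likelihood test, 10 libraries, no covariates, Benjamini-Hochberg adjustment over 13084 genes, prior count 0.125). Standard errors were derived from the fold change and the F statistic. Single values and ratios (pseudocount 0.5) were compared by two-sided exact permutation tests. Likeness is Pearson's correlation over mice of log2 CPM (prior count 2) after subtraction of group means. Alternatives were DESeq2 1.42.0, limma 3.58.1, other scalings, filters, covariates and thresholds, a replicate block, left-out libraries and removal of each library's lowess trend (span 0.4) on transcript length. The fits were checked on simulated counts, where edgeR recovered 173 of 198 genes changed 2-fold and called 7 unchanged genes. With a length trend simulated as well, it called 717 unchanged genes, and 7 once the trend was removed. That trend had a Spearman correlation of -0.79 with length, against -0.32 in the real fit, which does not remove it. Lengths, positions and shared sequence come from GENCODE M21 (GRCm38), promoters from RefSeq (GRCm38.p6). Promoter windows leave out bases inside the gene as GENCODE M21 gives it. At 5703775 to 7095141 reads per library, precision is set by counting error and the spread between mice, and 3 reads are taken as the smallest detectable count. The 21 pairs of libraries within a group differed by a chi-square per degree of freedom of at least 3.78, so none was a repeat. Same-numbered mice of both groups correlated at -0.04 to 0.04, which gives no sign that the numbers pair the mice but does not exclude it.

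The members and gene lists were chosen with earlier results of these data known. The genes named are the members, the called, highest or undetected genes of the lists, the 10 genes most like the members, and Tbx5. Genes from the further list in the comparison by sex were chosen after their values were seen, as were that comparison, the interaction with sex, the length correction of the ratios and the leaving out of mutant F3 from the correlations.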

Additional observations from a re-analysis of the deposited data

Results flagged for a closer look

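Among 24 groups of 4 or 6 mice examined for a value far from the others, 1 stood out, where chance gives about 1.2. Krt19 in control mouse M2 was at 23.7 CPM, with the nearest control at 17.7 CPM, and the gap took 0.93 of the range of the group.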

How the results depend on the processing

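Of the 8 members, 0 were called higher and 0 lower under each of 27 alternatives, with Krt8 left untested under a mean count of at least 50. The number of all genes called was 2049 and moved to 1284 with a mean count of at least 50, 4096 with no fold change threshold and 906 with a fold change over 2, and was between 1807 and 2205 with each library left out. In the further list of epicardial and mesothelial genes, 2 were called higher with limma, the replicate block or no fold change threshold, and 0 with a fold change over 2 or with the replicate block and the length trend removed together. Leaving out each library gave 1 to 2 called higher, with 2 without control M2 or mutant M1, and 1 to 1 called lower, and a fold change over 2 gave 0 called lower. The log2 fold change of Wt1 turned from -0.05 to 0.0036 under the replicate block and to 0.029 without mutants M2 and M3, and was between -0.096 and 0.0036 with each library left out, turning without control F2 and without mutant M2. Those of Krt19 and Krt18 turned to -0.0010 and -0.019 with the length trend removed, that of Msln to -0.015 without mutants M2 and M3, and that of Lrrn4, between -0.20 and 0.0046 with each library left out, turned without mutant F3. Upk1b passed an adjusted p of 0.05 without mutant F3 and under the replicate block (0.37, adjusted p = 0.0343, edgeR). The log2 difference of Upk1b to Upk3b was 0.66 without mutants M2 and M3, 0.47 with the length trend removed, and 0.53 to 0.71 with each library left out. Under the replicate block, over 4 same-numbered pairs, it was 0.60 (adjusted exact p = 0.25, where 4 pairs cannot go below 0.125 unadjusted). That of Krt8 to Krt18 was 0.25 to 0.60 with each library left out, past the threshold without mutant M1 (0.60, adjusted exact permutation p = 0.0238), and 0.44 under the replicate block. Whether the replicate numbers pair the mice is not known, and the block called 1957 genes in all. The causes were not tested. Krt8 rests on 15 to 49 reads per library.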
